A study of Danio rerio with 12 samples.

Results

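The neuron and neural progenitor genes are 39 genes of zebrafish embryos, of 32520 in the count table. They were chosen by name, as genes that mark neural progenitors, maturing neurons and neuron subtypes: 36 listed zebrafish names were looked up among the gene symbols, and all 36 were found. Of these, 10 matched a zebrafish symbol and 26 matched the capital symbol of an orthologue. Of the capital symbols, 7 are shared by 2 zebrafish copies each, which the symbols do not tell apart, so such a gene is printed with its Ensembl ID. The set holds 8 progenitor genes, 24 maturation genes and 7 subtype transcription factor genes, and all 39 were detected well enough to be tested. The progenitor group joins 3 genes of progenitor maintenance, sox2, sox3 and her4.1, with 5 proneural and differentiation bHLH genes.

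The samples came from a zebrafish line carrying moonshine, abbreviated mon, a recessive mutation of trim33. The gene encodes a chromatin-associated transcription cofactor, and mutants are known for a lack of embryonic blood. Adults heterozygous for mon were crossed, 1 parent of each pair also carrying the drl:EGFP reporter, so that an embryo could inherit no more than 1 copy of it. Mutant embryos were picked by their weaker green fluorescence, a little ahead of the earlier stage. The 4 groups therefore follow a phenotype, and no genotype of single embryos or mon allele is given in the sources used here. They are mon at 22 hours post fertilization (hpf), siblings labelled wild-type/het at 22 hpf, mon at 30 hpf and siblings labelled wild-type/het at 30 hpf, each with 3 libraries. Each library is ribosome-depleted total RNA of a whole-body pool of 30 embryos from 1 clutch of 1 mating, and mon and sibling pools of the same clutch were taken at the same stage. Clutches 9, 11 and 13 gave the 22 hpf pools and clutches 3, 4 and 9 the 30 hpf pools, so stage and clutch overlap in clutch 9 alone.

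In the embryonic neural tube, SoxB1 factors such as Sox2 and Sox3 hold cells as dividing progenitors, and Notch signalling does so through Hes/Her repressors. Proneural bHLH factors of the Neurog and Ascl families start differentiation, and NeuroD factors follow them. New neurons then make Elav-like RNA-binding proteins, axonal cytoskeleton, vesicle release proteins and the enzymes and transporters of their transmitter, while LIM-homeodomain, Phox2 and Pou4f factors set their subtype. In zebrafish, the first neurons arise before the earlier stage studied here, and sensory, motor and interneuron circuits are being wired across both stages.

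Library totals were 18233320 to 23135676 reads assigned to genes, with 26261 to 26974 genes detected. Levels below are CPM, read counts brought to a common library total with TMM scaling factors of 0.967 to 1.042. They are not corrected for gene length, so a level is compared between libraries and never between genes. A gene was called where edgeR's quasi-likelihood test gave a Benjamini-Hochberg adjusted p under 0.05 over the 21778 genes tested, and intervals are 95% intervals of a log2 fold change. The trim33 transcript had 50.7, 57.6 and 67.6 CPM in mon and 85.6, 84.1 and 89.3 CPM in siblings at 22 hpf in clutches 9, 11 and 13. It was lower in mon in each pair at 22 hpf, with a log2 fold change of -0.56 and an edgeR adjusted p of 0.00129. At 30 hpf trim33 was again lower in mon in each pair, by less. It had 72.7, 72.8 and 71.6 CPM in mon and 75.4, 76.2 and 77.9 CPM in siblings in clutches 3, 4 and 9. The trim33 log2 fold change at 30 hpf was -0.081, with an interval of -0.27 to 0.11, and the gene was not called. Erythroid markers were called lower in mon for 9 of 10 genes at each stage. Their summed level was 12.1 to 14.1 CPM in mon against 325.5 to 365.6 CPM in siblings at 22 hpf, and 19.8 to 23.8 CPM against 1665 to 1837 CPM at 30 hpf.

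From 22 to 30 hpf most of the neuron genes rose in mon and in siblings, and the median change was larger over the maturation genes than over the progenitor genes. In siblings 30 of the 39 genes rose, 1 fell and 8 were not called, where 22.4% of all tested genes rose and 20.7% fell. All 3 sibling libraries of 30 hpf were above all 3 of 22 hpf for 32 of the 39 genes and below them for 1, against 26.8% and 25.9% of all tested genes. In mon 29 rose, 0 fell and 10 were not called, against 22.1% and 20.2% of all genes, and the stages did not overlap for 31, all higher at 30 hpf, against 26.2% higher and 24.9% lower of all genes. The median log2 fold change in siblings was 0.97 over the 8 progenitor genes, 1.97 over the 24 maturation genes and 0.51 over the 7 subtype factors, and it was -0.017 over all tested genes. In mon these medians were 1.02, 1.67, 0.43 and -0.010. Within the progenitor group, the sibling median was 0.032 over the 3 maintenance genes and 1.29 over the 5 bHLH genes. In mon these were 0.016 and 1.24, so the group median mostly reflects the bHLH genes. In a whole-embryo pool, fewer cells of a type and less RNA per cell cannot be told apart, and the same holds for more of either.

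**Figure D1:**
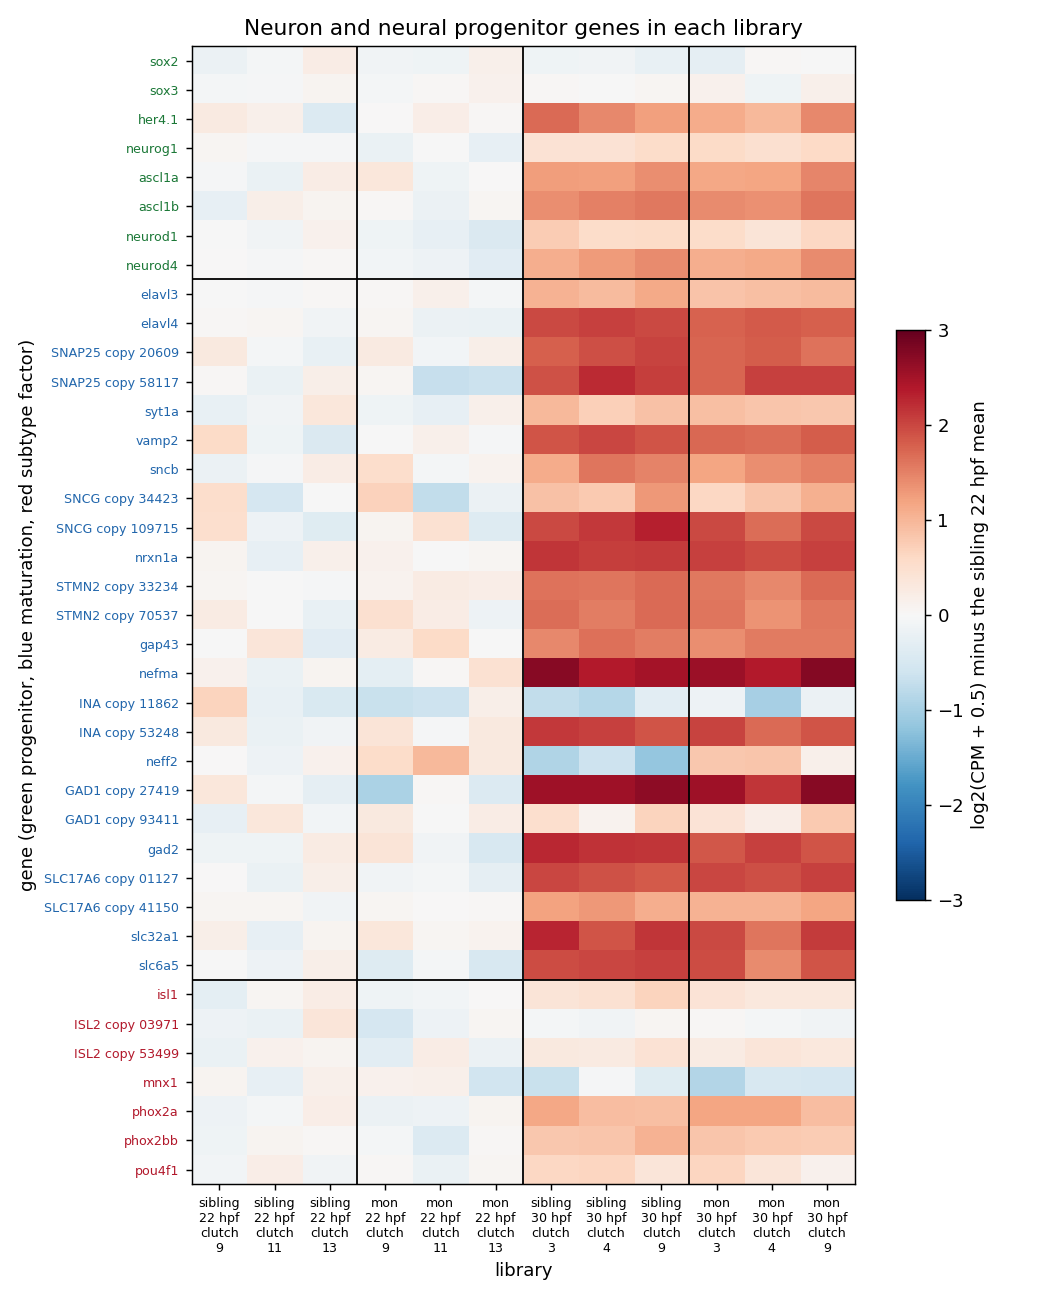
Each row is a gene, each column a library, and the colour is log2(CPM + 0.5) minus the mean of the 3 sibling libraries at 22 hpf; row names are green for progenitor, blue for maturation and red for subtype factor genes, and copies carry the last digits of their Ensembl ID. The 30 hpf libraries of both genotypes are red in most maturation rows, sox2 and sox3 stay near white, and neff2 is blue in the siblings alone at 30 hpf.

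Among the progenitor genes, the Notch target and the bHLH genes rose, and the SoxB1 pair was not called. Sox2, which keeps neural progenitors multipotent, had 57.8, 63.3 and 76.6 CPM in the siblings at 22 hpf and 59.6, 60.96 and 55.9 CPM at 30 hpf. The mon libraries had 60.5, 59.7 and 72.7 CPM of sox2 at 22 hpf and 54.3, 67.5 and 64.7 CPM at 30 hpf. All 4 groups overlapped, and the edgeR log2 fold change by stage was -0.16 in siblings, with an interval of -0.41 to 0.085, and -0.049 in mon, with an interval of -0.30 to 0.20. For sox3, the other SoxB1 gene, these intervals were -0.13 to 0.20 and -0.15 to 0.18. With the clutch as a block, where the stage contrast rests on clutch 9, sox3 was called higher at 30 hpf by 0.17 in siblings, edgeR adjusted p = 0.0144, and by 0.15 in mon, adjusted p = 0.0319.

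The Notch target her4.1 rose by 1.72 on the log2 scale in siblings, edgeR adjusted p = 5.22e-05, and by 1.33 in mon, adjusted p = 0.000625. It had 0.923 to 1.78 CPM in the 6 libraries of the earlier stage and 3.23 to 5.65 CPM in the 6 of the later one. Its level is uncertain, because the her4 copies are much alike and reads could be shared between them, which was not tested. The copy her4.3 had 0 reads in both clutch 13 libraries. The copies her4.2, her4.4 and her4.5 had no overlap between the stages, each being higher at 30 hpf. The proneural gene neurog1, which starts neuronal fate in much of the nervous system, had the smallest stage change of the bHLH genes in both genotypes. Siblings had 25.2, 23.6 and 23.3 CPM of neurog1 at 22 hpf and 32.4, 32.7 and 35.2 CPM at 30 hpf, a log2 rise of 0.47 with an SE of 0.088 and an edgeR adjusted p of 0.000283. In mon the rise of neurog1 was 0.72, adjusted p = 4.29e-06. The achaete-scute genes ascl1a and ascl1b, which act earlier in many interneuron and catecholaminergic lineages, rose by 1.34 and 1.53 in siblings. Of the NeuroD genes, which promote differentiation after the proneural step, neurod1 rose by 0.65 and neurod4 by 1.29 in siblings. All 5 bHLH genes were called in both genotypes, with edgeR adjusted p-values of at most 0.000283, and none had overlapping stages.

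The RNA-binding genes elavl3 and elavl4, which encode HuC and HuD and mark postmitotic neurons, both rose. Elavl3 went from 203, 201 and 210.0 CPM to 421, 398 and 452 CPM in siblings, a log2 fold change of 1.05 with an edgeR adjusted p of 2.76e-10. Elavl4 went from 21.1, 21.5 and 18.97 CPM to 82.4, 86.1 and 82.96 CPM, a log2 fold change of 2.03 with an adjusted p of 4.23e-12. The log2 change was the larger in elavl4, and neither gene's stages overlapped. In mon the same changes were 0.85 for elavl3 and 1.93 for elavl4, both called.

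Of the 8 genes of synaptic vesicles and release, 7 rose in each genotype. The SNARE gene SNAP25 copy ENSDARG00000058117 had 0.559, 0.398 and 0.667 CPM in siblings at 22 hpf and 3.38, 4.36 and 3.83 CPM at 30 hpf, a log2 rise of 2.82 with an SE of 0.37 and an edgeR adjusted p of 8.12e-06. The other copy, SNAP25 copy ENSDARG00000020609, rose by 1.96, from 12.003, 9.30 and 8.26 CPM to 35.2, 38.3 and 41.2 CPM. Both copies were higher at 30 hpf without overlap, and their intervals, 1.97 to 3.67 and 1.65 to 2.26, overlapped. Vamp2, the vesicle SNARE partner of SNAP25, rose by 1.98 in siblings and 1.83 in mon. Syt1a, a calcium sensor for release, rose by 0.86 and 0.93. The presynaptic adhesion gene nrxn1a rose by 2.14 in siblings, from 13.4, 10.6 and 14.2 CPM to 57.5, 55.00 and 55.3 CPM, with an adjusted p of 2.1e-11. The synuclein genes, whose products bind vesicle membranes, were less even: sncb rose by 1.60 and SNCG copy ENSDARG00000109715 by 2.57 in siblings.

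The remaining synuclein gene, SNCG copy ENSDARG00000034423, varied by clutch at 22 hpf, and whether it was called by stage turned on the fit. It had 13.9, 6.56 and 9.49 CPM in siblings and 15.8, 5.49 and 8.37 CPM in mon for clutches 9, 11 and 13, so clutch 9 was highest and clutch 11 lowest in both genotypes. At 30 hpf it had 18.05, 16.9 and 24.4 CPM in siblings and 15.06, 17.4 and 20.6 CPM in mon for clutches 3, 4 and 9, where clutch 9 was again highest in both. Its stage change was 0.99 in siblings, edgeR adjusted p = 0.0624, and 0.84 in mon, adjusted p = 0.108. With the clutch as a block, where the stage contrast rests on clutch 9, it was called in both. The values were 0.65 in siblings, adjusted p = 0.000323, and 0.54 in mon, adjusted p = 0.00246. Limma-voom also called it in both, adjusted p = 0.0113 and 0.0171, as did the fit without clutch 9, adjusted p = 0.00118 and 0.000711. In siblings it was called by DESeq2, adjusted p = 0.0452, and with only the groups compared, adjusted p = 0.0196. Without the mon 22 hpf library of clutch 9 it was called in both, adjusted p = 0.00936 in siblings and 0.00455 in mon, where the value was then 1.38. In siblings it was called too without the mon 22 hpf library of clutch 11, adjusted p = 0.0257, or the sibling 22 hpf library of clutch 9, adjusted p = 0.0331.

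All 3 axon growth genes rose in both genotypes. The stathmin genes STMN2 copy ENSDARG00000033234 and STMN2 copy ENSDARG00000070537, whose products regulate microtubules in growing axons, rose by 1.71 and 1.67 in siblings. Gap43, a membrane protein of growth cones, rose by 1.61. In mon these rises were 1.45, 1.34 and 1.27, and all 6 values were called by edgeR with adjusted p-values of at most 2.02e-05.

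The neuronal intermediate filament genes split. Nefma, the medium neurofilament subunit, had the largest sibling fold change of the set, from 0.763, 0.497 and 0.718 CPM at 22 hpf to 7.20, 5.46 and 6.04 CPM at 30 hpf. That is a log2 rise of 3.23 with an SE of 0.29 and an edgeR adjusted p of 8.11e-08. Every library of the later stage was above every one of the earlier stage, and the same held in mon, where the rise was 3.13. Of the alpha-internexin copies, INA copy ENSDARG00000053248 rose by 2.08 in siblings and 1.70 in mon. The other, INA copy ENSDARG00000011862, was scarce, with 0.409 to 2.39 CPM over the 12 libraries, and was not called by stage in either genotype: its log2 value of -1.06 in siblings had an interval of -2.27 to 0.15. Neff2, placed with the intermediate filaments by its name, fell in siblings from 3.20, 2.83 and 3.54 CPM to 1.47, 1.90 and 1.16 CPM, a log2 value of -1.08 with an SE of 0.28 and an edgeR adjusted p of 0.00464. It was the single gene of the set that fell by stage in siblings.

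Of the 7 genes of transmitter synthesis and transport, 6 rose in each genotype. The glutamate decarboxylase gene GAD1 copy ENSDARG00000027419, which makes GABA, had 1.68, 1.14 and 0.923 CPM in siblings at 22 hpf and 9.51, 9.52 and 10.5 CPM at 30 hpf, a log2 rise of 2.97 with an edgeR adjusted p of 2.49e-07. The stages lay far apart, and in mon the rise was 3.46, from 0.387, 1.27 and 0.805 CPM to 9.55, 7.05 and 10.9 CPM. The second copy, GAD1 copy ENSDARG00000093411, stayed between 1.22 and 3.01 CPM over the 12 libraries and was not called, with intervals of -0.17 to 1.23 in siblings and -0.30 to 1.07 in mon. Gad2, the other GABA-making enzyme, rose by 2.35 and slc32a1, which loads GABA and glycine into vesicles, by 2.32 in siblings. The glycine transporter gene slc6a5, a marker of glycinergic neurons, rose by 2.12. Of the vesicular glutamate transporter genes, SLC17A6 copy ENSDARG00000001127 rose by 2.17 and SLC17A6 copy ENSDARG00000041150 by 1.23. Genes of inhibitory and excitatory transmission rose over the same interval in siblings, and every one of these called genes was also called in mon.

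The subtype transcription factors had the smallest median stage change of the 3 groups. The Phox2 genes of autonomic and hindbrain visceral motor neurons rose, phox2a by 1.05 and phox2bb by 0.93 in siblings, with edgeR adjusted p-values of 2.74e-05 and 1.93e-05. Isl1, a LIM-homeodomain factor of motor and sensory neurons, rose by 0.51 in siblings, adjusted p = 0.00374, and 0.43 in mon, adjusted p = 0.0128. Without clutch 9 the sibling value of isl1 was 0.31 and was not called, adjusted p = 0.0925. Pou4f1, a factor of sensory neurons, was called in siblings at 0.59, adjusted p = 0.0208, and not in mon, at 0.48, adjusted p = 0.0576. That sibling call was lost with the clutch as a block, where the stage contrast rests on clutch 9, adjusted p = 0.294. It was also lost without the 22 hpf sibling library of clutch 9 or 13, or the 30 hpf sibling library of clutch 3 or 4, with adjusted p-values of 0.0625 to 0.0712. Without the 30 hpf mon library of clutch 9, pou4f1 was called in mon, adjusted p = 0.0309, and without clutch 9 as well, adjusted p = 0.0476. The difference between the genotypes was not called.

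Mnx1, the motor neuron homeobox gene, had 3.25, 2.49 and 3.44 CPM in siblings at 22 hpf and 1.73, 2.96 and 2.27 CPM at 30 hpf. In mon it had 3.34, 3.45 and 1.88 CPM and 1.43, 2.05 and 1.99 CPM. The groups overlapped, and the log2 values of -0.40 in siblings and -0.66 in mon were not called by edgeR, adjusted p = 0.282 and 0.0784. The mon value was called without the mon 22 hpf library of clutch 13, adjusted p = 0.0221, and with library totals in place of TMM factors, adjusted p = 0.0490. The Islet copies ISL2 copy ENSDARG00000003971 and ISL2 copy ENSDARG00000053499, LIM-homeodomain genes of motor and sensory neurons, were not called in either genotype. With the clutch as a block, ISL2 copy ENSDARG00000053499 was called higher at 30 hpf in both, adjusted p = 0.0222 and 0.0121, and ISL2 copy ENSDARG00000003971 in mon, adjusted p = 0.0122. Without the mon 22 hpf library of clutch 11, ISL2 copy ENSDARG00000053499 was called in mon, adjusted p = 0.0194.

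**Figure D2:**
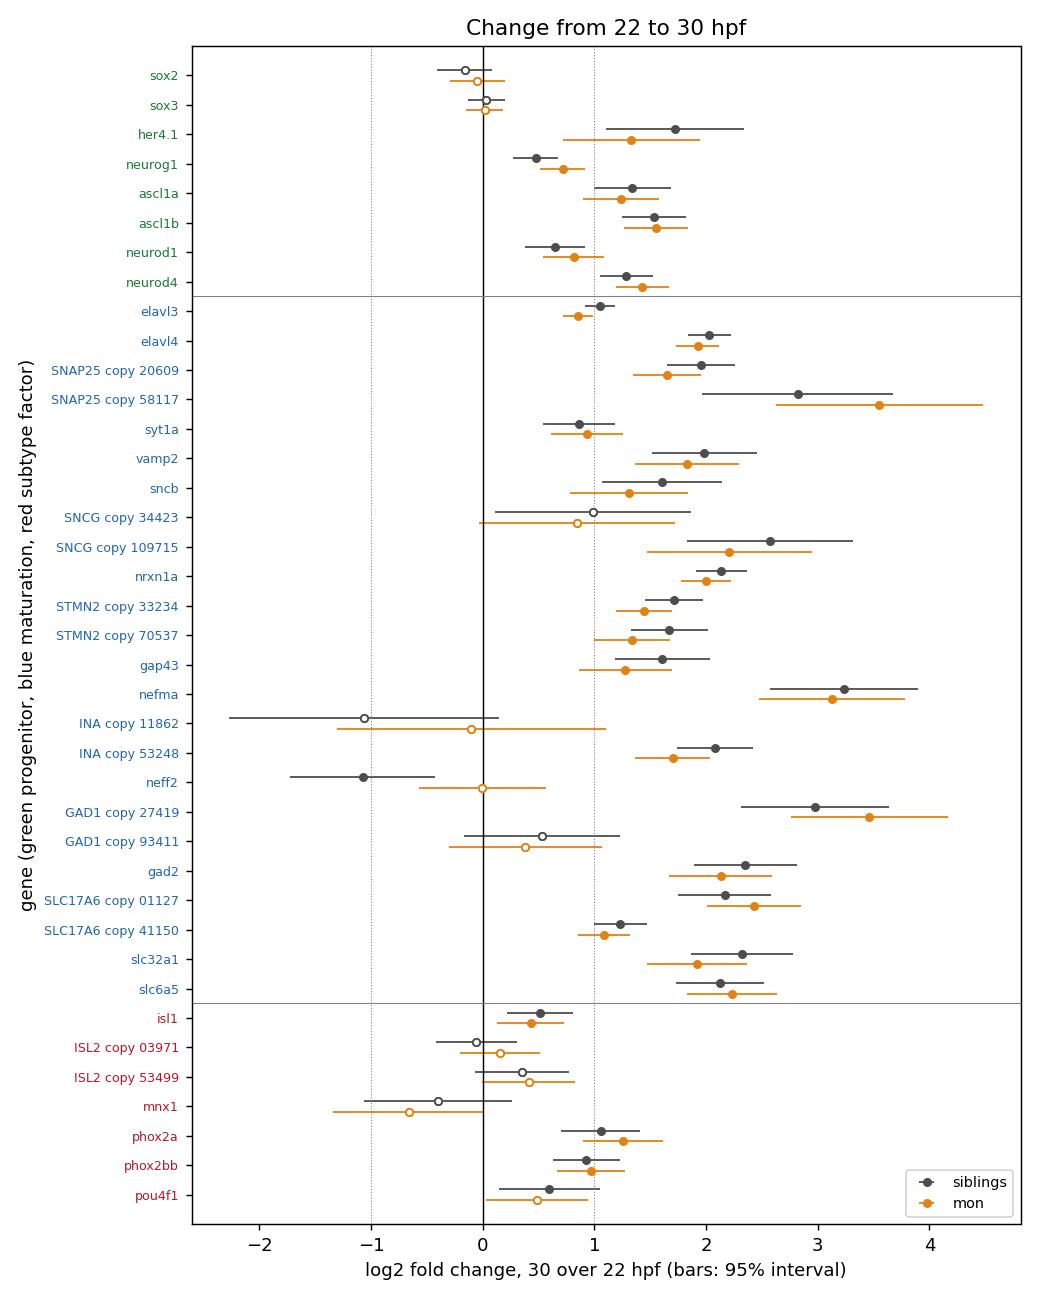
Points are edgeR log2 fold changes from 22 to 30 hpf with 95% intervals, grey in siblings and orange in mon, filled where the adjusted p was under 0.05; copies carry the last digits of their Ensembl ID. The maturation genes in blue reach furthest right, with nefma at 3.23 and 3.13, the SoxB1 genes lie near 0, and neff2 lies at -1.08 in siblings and near 0 in mon.

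Set against each other, 13 of the 24 maturation genes had a larger stage change than the highest of the 8 progenitor genes, in siblings and in mon. The highest progenitor gene was her4.1 in siblings and ascl1b in mon. Within clutch 9, where both stages come from 1 mating, the median log2 difference of log2(CPM + 0.5) was 0.77 over the progenitor genes, 1.65 over the maturation genes and 0.64 over the subtype factors in siblings. In the mon pools of that clutch the medians were 0.96, 1.49 and 0.44, and over all tested genes they were -0.0036 in siblings and 0.0058 in mon. The order of the 3 groups was the same as over all clutches. Skeletal muscle markers moved in the same interval: 13 of 14 rose and 1 fell in each genotype, and their summed level went from 3413 to 3976 CPM over the 6 libraries of 22 hpf to 16590 to 17892 CPM over those of 30 hpf. The TMM factors were 1.020 to 1.042 at 22 hpf and 0.967 to 0.976 at 30 hpf. The part of either in these rises was not tested.

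Mon and sibling embryos were then set side by side. Across the 39 genes, the 2 stage changes, which share no library but share clutch 9, had the same sign for 38 genes, with a Pearson correlation of 0.944 and a Spearman correlation of 0.979. Over all 21778 tested genes these were 85.8% of the same sign, 0.902 and 0.858. Genes are not independent replicates, and the values are a description. The gene with opposite signs was ISL2 copy ENSDARG00000003971, which was called in neither.

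**Figure D3:**
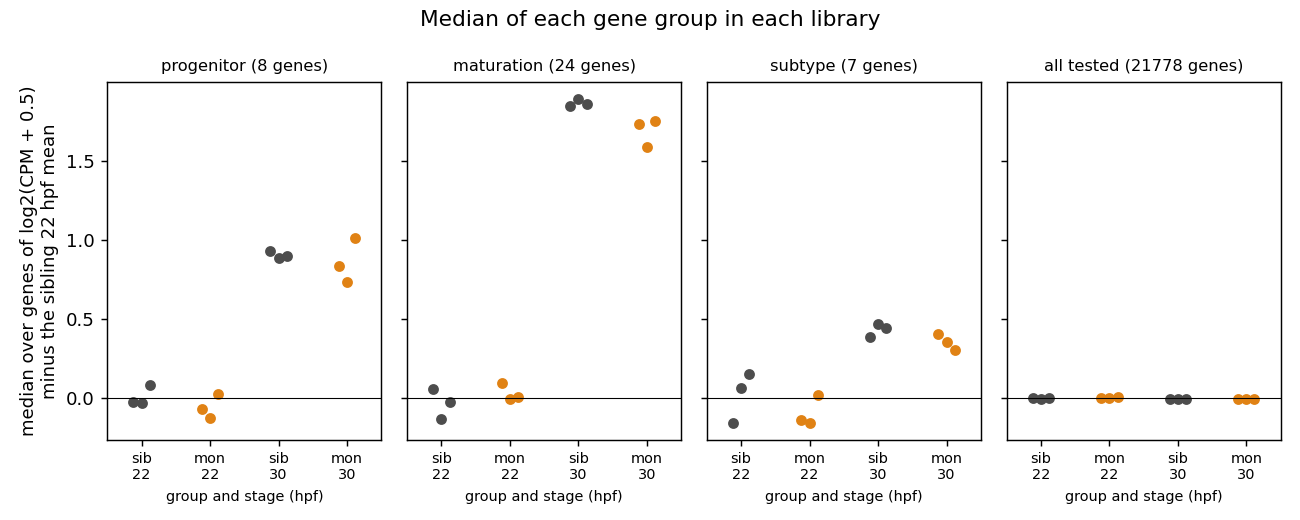
Each point is 1 library and gives the median over a gene group of log2(CPM + 0.5) minus the sibling 22 hpf mean, grey for siblings and orange for mon; sib 22 means siblings at 22 hpf, and so on. The maturation median is 1.85 to 1.89 in the 30 hpf siblings and 1.59 to 1.75 in the 30 hpf mon libraries, and the median of all tested genes stays near 0.

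At 22 hpf, none of the 39 genes was called between mon and siblings. With edgeR 0 of 39 passed, where 0.445% of all tested genes did. An unadjusted p under 0.05 was found for 2, neurod1 and neff2, against 935 of all 21778 tested genes. DESeq2, limma-voom and the fit with the clutch as a block also called 0, where the block called 1.48% of all genes. The median log2 fold change was -0.042 over the progenitor genes, 0.054 over the maturation genes and -0.094 over the subtype factors. All 7 subtype values were below 0, against 49.1% of all tested genes. By clutch this was uneven: 3, 4 and 6 of the 7 were lower in mon in clutches 9, 11 and 13. Leaving out 1 library, the maturation median ranged from -0.046 without the sibling library of clutch 11 to 0.12 without that of clutch 9. The progenitor median ranged from -0.12 without the sibling library of clutch 9 to 0.0037 without the mon library of clutch 11. The intervals of 35 genes lay within a 2-fold difference either way, and those of 24 within 1.5-fold. The exceptions past 2-fold were SNAP25 copy ENSDARG00000058117, INA copy ENSDARG00000011862, neff2 and GAD1 copy ENSDARG00000027419, of which the widest was that of INA copy ENSDARG00000011862, -1.76 to 0.60.

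The 2 groups did not overlap for 4 genes at 22 hpf. Neurod1 had 12.8, 11.9 and 10.4 CPM in mon and 13.99, 13.02 and 15.5 CPM in siblings, so all mon pools lay below all sibling pools. Its log2 fold change was -0.28, with an unadjusted p of 0.035 and an edgeR adjusted p of 1. Neurod4 had 26.95, 25.7 and 22.4 CPM in mon and 28.6, 27.9 and 29.2 CPM in siblings, again without overlap, with a log2 fold change of -0.19 and an interval of -0.43 to 0.049. In the other direction, STMN2 copy ENSDARG00000033234 had 7.69, 8.48 and 8.26 CPM in mon and 7.43, 6.96 and 6.87 CPM in siblings, a log2 fold change of 0.20 with an interval of -0.065 to 0.47. The remaining gene was neff2, higher in mon. Of all tested genes 4.33% were lower and 4.12% were higher in mon without overlap, so 2 of 39 each way is near the background. Neither NeuroD gene was called at 30 hpf, where the log2 values were -0.11 and -0.049 and the groups overlapped.

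At 30 hpf, 1 of the 39 genes was called between mon and siblings, neff2, which was higher in mon. Of all tested genes 0.79% were called and 0.239% were higher. The members were chosen with earlier results of these data known, so the count beside these shares is a description. No other gene of the set was called by edgeR, DESeq2 or limma-voom, each fitted without the clutch as a block. The edgeR fit with the block called 3 genes of the set. In the fit without it, 3 had an unadjusted p under 0.05, elavl3, elavl4 and neff2, against 1210 of all 21778 tested genes. The median log2 fold change was -0.024 over the progenitor genes, -0.12 over the maturation genes and -0.11 over the subtype factors. It was -0.12 over the progenitor genes without the mon library of clutch 9, and 0.033 without the sibling library of clutch 9. The maturation median ranged from -0.16 without the mon library of clutch 9 to -0.074 without that of clutch 4. Again 35 intervals lay within 2-fold and 25 within 1.5-fold, and the exceptions past 2-fold were SNCG copy ENSDARG00000034423, INA copy ENSDARG00000011862, neff2 and mnx1.

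Elavl3 and elavl4 were the genes of lower level in mon that came nearest to a call at 30 hpf. Elavl3 had 372, 381 and 397 CPM in mon and 421, 398 and 452 CPM in siblings, 383 ± 12.6 against 423 ± 27.00 (SD, n = 3 each). Every mon pool was below every sibling pool, with a log2 fold change of -0.14, an SE of 0.058 and an edgeR adjusted p of 0.718. Elavl4 had 70.6, 74.9 and 72.4 CPM in mon and 82.4, 86.1 and 82.96 CPM in siblings, again apart, with a log2 fold change of -0.21, an SE of 0.077 and an adjusted p of 0.599. In the 3 clutches the elavl4 difference was -0.22, -0.20 and -0.20, and that of elavl3 -0.18, -0.063 and -0.19. With the clutch as a block both were called lower, elavl3 at -0.14 with an adjusted p of 0.0126 and elavl4 at -0.21 with an adjusted p of 0.025. The block raised the members called from 1 to 3, and the share of all genes called to 3.09%. At 22 hpf the same genes had log2 values of 0.050 and -0.10, neither called, and the groups overlapped.

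By the order of genes that RefSeq gives for the GRCz12tu assembly, elavl4 shares a chromosome with trim33, with 91 protein-coding genes placed between them. It is the single one of 35 placed names of the set there, and elavl3 is on another chromosome. The part of this linkage in the elavl4 value was not tested. Muscle markers were also lower with the block at 30 hpf for 3 of 14 genes, ckma at -0.10, TNNT3 copy ENSDARG00000068457 at -0.19 and ACTA1 copy ENSDARG00000055618 at -0.19 on the log2 scale. Without the block 0 of the 14 were called, and the summed muscle level was 16590 to 17788 CPM in mon against 17612 to 17892 CPM in siblings. The part of this in the elavl values was not tested.

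**Figure D4:**
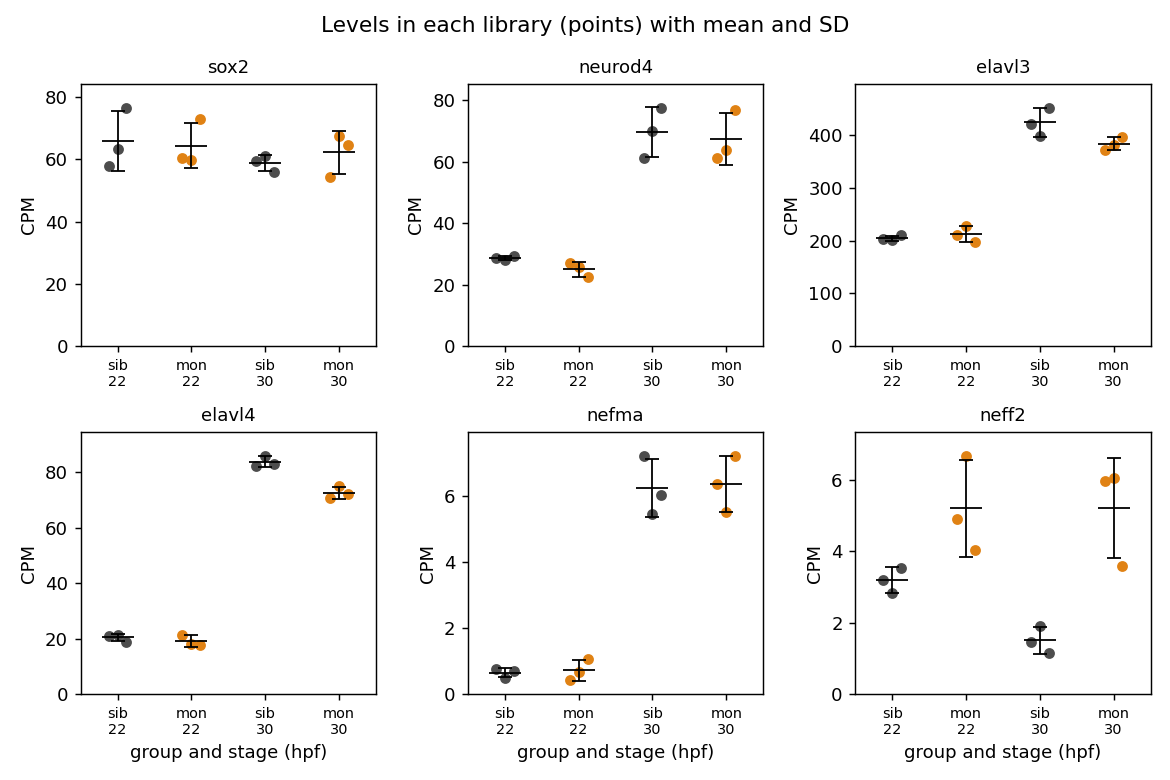
Points are the 3 libraries of each group in CPM, in grey for siblings and orange for mon, with a dash at the mean and bars of 1 SD; sib 22 means siblings at 22 hpf, and so on. Elavl3 and elavl4 are lower in mon at 30 hpf without overlap, sox2 overlaps in all groups, and the mon points of neff2 lie above the sibling points at both stages.

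Small differences towards lower levels in mon at 30 hpf were seen over much of the set, but unevenly by clutch. Of the 3 gene groups, only the maturation genes were mostly lower in mon in each clutch, and there the size varied. The log2 value was below 0 for 30 of the 39 genes and for 19 of the 24 maturation genes, against 49.5% of all tested genes, and all 8 vesicle and release genes were among them. It was also below 0 for 6 of the 7 subtype factors and 5 of the 8 progenitor genes. By clutch, 20, 18 and 15 of the 24 maturation genes were lower in mon in clutches 3, 4 and 9, where all tested genes gave 50.3%, 49.5% and 49.2%. The median difference of the maturation genes was -0.081, -0.14 and -0.029 in those clutches. Of the 7 subtype factors, 2, 4 and 6 were lower in mon in the same clutches, and of the 8 progenitor genes 5, 6 and 1. The progenitor genes below 0 were 2 of 8 without the sibling 30 hpf library of clutch 9. Leaving out each 30 hpf library in turn gave 24 to 31 of the 39 genes below 0, with 24 without the sibling library of clutch 9. Genes without overlap and lower in mon were elavl3, elavl4, vamp2, nrxn1a, gad2 and slc6a5, 6 of 39 against 6.29% of all tested genes, and neff2 alone was higher without overlap, against 6.05%. Genes of 1 pool share their source, so these counts describe 3 pairs of pools.

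Of those genes, gad2 had 12.2, 13.9 and 12.4 CPM in mon and 16.1, 15.03 and 14.8 CPM in siblings at 30 hpf, a log2 fold change of -0.26 with an interval of -0.67 to 0.15. Nrxn1a had 54.00, 50.7 and 53.9 CPM and 57.5, 55.00 and 55.3 CPM, a log2 fold change of -0.082 with an interval of -0.29 to 0.13. The glycinergic gene slc6a5 had 17.6, 11.97 and 16.9 CPM and 17.7, 18.1 and 18.98 CPM, a log2 fold change of -0.24 with an interval of -0.60 to 0.12. In each the mon pools lay below the sibling pools by margins that were small beside the stage rise, and none was called. The mon pool of clutch 4 was the lowest for slc6a5.

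**Figure D5:**
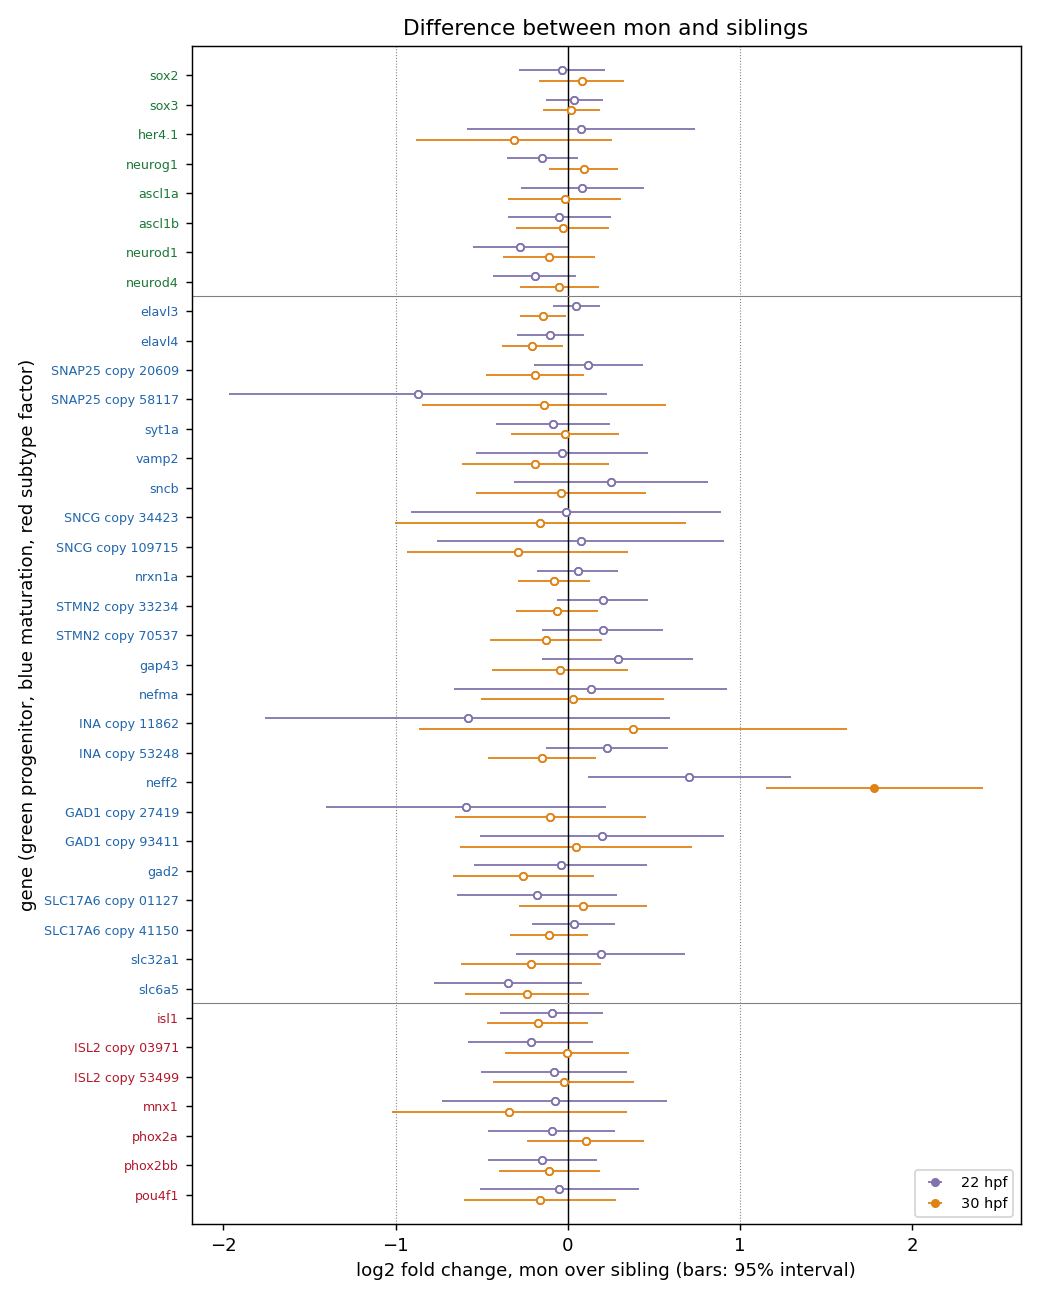
Points are edgeR log2 fold changes of mon over siblings with 95% intervals, purple at 22 hpf and orange at 30 hpf, filled where the adjusted p was under 0.05; dotted lines mark 2-fold. Neff2 at 30 hpf, at 1.78, is the one filled point, and most 30 hpf values of the maturation genes lie just left of 0.

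Neff2 went against most of the set. In mon it had 4.89, 6.67 and 4.02 CPM at 22 hpf and 5.96, 6.05 and 3.59 CPM at 30 hpf. In siblings it had 3.20, 2.83 and 3.54 CPM and 1.47, 1.90 and 1.16 CPM. Mon pools were above sibling pools at both stages without overlap, and the siblings fell by stage while the mon groups overlapped. The difference at 22 hpf was 0.71 on the log2 scale with an SE of 0.26 and was not called, edgeR adjusted p = 0.732, or 0.0837 with the clutch as a block. At 30 hpf it was 1.78, a 3.43-fold higher level, with an SE of 0.27 and an adjusted p of 0.00153. By clutch the 30 hpf difference was 1.71, 1.45 and 1.30 in clutches 3, 4 and 9. The call at 30 hpf held in every alternative run, with log2 values of 1.62 to 1.99 and adjusted p-values of 5.26e-09 to 0.0193.

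The stage change of neff2 was -1.08 in siblings and -0.0039 in mon, where the interval was -0.57 to 0.57. Within clutch 9 the log2 difference by stage was -1.16 in siblings and -0.40 in mon. The change of the mon difference between the stages was 1.07, with an interval of 0.21 to 1.94, and was not called, edgeR adjusted p = 1, or 0.104 with the block. The other filament genes were not called at 30 hpf: nefma had an interval of -0.50 to 0.56, INA copy ENSDARG00000053248 one of -0.47 to 0.16 and INA copy ENSDARG00000011862 one of -0.86 to 1.62.

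For the whole set, 0 of 39 genes were called for a change of the mon difference from 22 to 30 hpf, where 0.0872% of all tested genes were. With edgeR 2 had an unadjusted p under 0.05, elavl3 and neff2, against 698 of all 21778 tested genes. DESeq2, limma-voom and the block called 0, where the block called 0.482% of all genes. The median change was 0.067 over the progenitor genes and -0.15 over the maturation genes. Leaving out 1 library, the progenitor median ranged from -0.013 without the sibling 22 hpf library of clutch 13 to 0.14 without that of clutch 9. The maturation median ranged from -0.20 without the mon 30 hpf library of clutch 9 to -0.083 without the mon 22 hpf library of clutch 9. The mon differences at the 2 stages, which share no library, had the same sign for 21 of the 39 genes, or 53.8%, against 55.2% of all tested genes.

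Other neuron and progenitor genes, 223 from 7 further lists, of which 204 were tested, were read beside the set. By stage 146 rose and 14 fell in siblings, where 22.4% of all tested genes rose and 20.7% fell. In mon 136 rose and 13 fell, against 22.1% and 20.2% of all tested genes. In siblings 9 of 23 progenitor and radial glia genes rose and 5 fell, with a median log2 value of 0.15. The 5 that fell are near the share of all tested genes. Of 37 synapse and vesicle genes 34 rose and 0 fell, with a median of 1.61. The Notch pathway list had 12 of 21 rising and 2 falling, with a median of 0.33. The proneural and early neuron list had 17 of 21 rising and 2 falling, with a median of 1.33. The transmitter, channel and receptor list had 23 of 28 rising and 0 falling, with a median of 1.57. In the axon, adhesion and cytoskeleton list 25 of 33 rose and 2 fell, with a median of 1.17, and among further subtype factors 26 of 41 rose and 3 fell, with a median of 0.66.

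Between mon and siblings, edgeR called 0 of the 204 at either stage, with 14 at 22 hpf and 6 at 30 hpf at an unadjusted p under 0.05. Over all 21778 tested genes, 935 and 1210 had such a p. Among the 223 genes DESeq2 called 1 and 2, limma-voom 0 and 1, and the block 2 and 5. Over all genes the block called 1.48% and 3.09%, DESeq2 153 and 225 of 30311, and limma-voom 80 and 169 of 21778. At 30 hpf 146 of the 204 had a log2 value below 0, against 49.5% of all tested genes, and the median was -0.065. At 22 hpf 98 did, against 49.1% of all tested genes, and the median was 0.0021. The smallest p-values by list were those of NOTCH1 copy ENSDARG00000103554, a Notch receptor gene, at -0.18 at 30 hpf with an edgeR adjusted p of 0.0673, and of runx3, a factor of sensory neurons, at 0.92 at 22 hpf with an adjusted p of 0.0915. With the block these were 1.21e-05 and 0.00025. The others were MYT1 copy ENSDARG00000102879, a factor of early neurons, at -0.26 at 30 hpf, and the synaptic adhesion gene nlgn1, at 1.06 at 22 hpf. With the block MYT1 copy ENSDARG00000102879 had an adjusted p of 0.000744 and nlgn1 one of 0.0412. In the remaining lists the smallest p belonged to SLC1A3 copy ENSDARG00000043148, a glutamate transporter of radial glia, at 0.82, to STMN4 copy ENSDARG00000043932, a stathmin gene, at 0.61 and to ache, the acetylcholinesterase gene, at -0.37, all at 22 hpf and none called with or without the block. The DESeq2 calls were runx3 at 22 hpf and, at 30 hpf, NOTCH1 copy ENSDARG00000103554, lower in mon, and neurod2, higher in mon. Neurod2 had too few reads for the edgeR test, and its DESeq2 log2 value was 5.98, adjusted p = 0.00499. That value rests on few reads, and the levels by library are not given here. The limma-voom call was NOTCH1 copy ENSDARG00000103554. The block's calls at 22 hpf were runx3 and nlgn1. The rest of the genes called lower at 30 hpf with the block, named after their values were seen, were INSM1 copy ENSDARG00000053301, DBX1 copy ENSDARG00000086393 and olig2, at -0.25, -0.33 and -0.54.

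Markers of other cell types were read between mon and siblings as well. Besides the erythroid genes, edgeR called 0 genes at either stage among 8 of glia and Schwann cells, 14 of skeletal muscle, 6 of endothelium, 7 of epidermis, 15 of proliferation and 9 of the p53 response. With the block, krt5 of the epidermis list was called higher by 0.17 at 30 hpf. Called lower with it were olig2, which the glia list also holds, and the 3 of 14 muscle genes named above.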

How the data were processed

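A single table of raw counts, deposited by the authors, gives whole reads for each of 32520 Ensembl IDs in 12 libraries, whose column codes stand at the start of each sample's description in the labels. The tools named in the submitters' processing notes, with no order, are FastQC, TopHat2 2.0.11, HTSeq, cutadapt and Cufflinks 2.2.1, and the build is GRCz11. The strand setting of the counting was not given in the sources used here, so transcripts such as sox2ot, at 1.06 to 2.70 CPM, may share reads with a gene they overlap. Symbols matched 29201 IDs. RefSeq names and gene order are those of GRCz12tu, another build, so no coordinate is given.

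The counts were filtered with filterByExpr and fitted over all 12 libraries in 1 model of 4 groups. The fit used edgeR 4.0.16 in R 4.3.3, TMM factors and the quasi-likelihood test. The same fit was run on simulated counts that held no clutch effect, so its behaviour with paired pools was not tested. Per-clutch differences are of log2(CPM + 0.5). The 95% intervals use the 8 residual degrees of freedom, fewer than the p-values use. DESeq2 1.42.0, limma-voom (limma 3.58.1), the clutch as a block, other scalings, no filter, and leaving out each library or clutch 9 were alternatives. The block was used in edgeR alone, so the DESeq2 and limma-voom fits also left out the pairing by clutch. Clutch numbers pair mon and sibling pools, since both come from 1 mating. Over 10881 genes, a library's departure from its group mean correlated at 0.509 to 0.690 within the 6 pairs of 1 clutch and at -0.19 or lower between clutches. Departures from a mean of 3 libraries cancel out, so positive values within clutches bring negative ones between clutches by construction. The precision of a level is set by the library totals and by the 3 pools per group. Without the block, p-values rest on the spread between those pools, clutch differences included, and not on the spread of the differences within pairs.

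The members and lists were chosen with earlier results of these data known. All members are named; of each further list, genes called between mon and siblings or else the 1 gene of smallest p. No per-sample column was left out.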

Additional observations from a re-analysis of the deposited data

Results flagged for a closer look

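For 5 genes, all 3 clutch pairs differed one way between mon and siblings at 22 hpf and all 3 the opposite way at 30 hpf. The share of all tested genes with this pattern was not counted, so the 5 cannot be set against a background. By this rule the difference was not tested, and the edgeR test of the change called none of them. STMN2 copy ENSDARG00000033234 was higher in mon in 3 of 3 pairs at 22 hpf and lower in 3 of 3 at 30 hpf, with a change of -0.27 on the log2 scale and an interval of -0.62 to 0.092. STMN2 copy ENSDARG00000070537 did the same with a change of -0.33, interval -0.81 to 0.15. INA copy ENSDARG00000053248 did so with -0.38, interval -0.85 to 0.094. Slc32a1 did so with -0.40, interval -1.04 to 0.23. Phox2a went the other way, lower in mon at 22 hpf and higher at 30 hpf, with 0.20 and an interval of -0.30 to 0.70. The edgeR adjusted p was 1 for each, and every interval includes 0.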

How the results depend on the processing

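Over 20 alternatives, the 195 results of single genes gave 3861 values. None of the called values reversed, 128 values changed sign, none called in either fit, 6 calls were lost (isl1 and pou4f1 in siblings by stage) and 24 gained, over 11 results. With the clutch as a replicate block, 3 genes were called between mon and siblings at 30 hpf in place of 1. The block left the counts of 0 at 22 hpf and for the change as they were. The maturation median by stage was 1.76 with the block, 1.88 with library totals and 2.08 without clutch 9 in siblings, and 1.49, 1.60 and 1.79 in mon. With the block the stage contrast rests on clutch 9. Leaving out 1 library at a time, it ranged from 1.80 to 2.08 in siblings and from 1.56 to 1.78 in mon. The same ranges were -0.046 to 0.12 for the maturation median between mon and siblings at 22 hpf, and -0.12 to 0.033 for the progenitor median at 30 hpf. In both the sign was not stable. The cause of these shifts was not tested. Leaving out 1 library, the maturation median ranged from -0.16 to -0.074 between mon and siblings at 30 hpf and from -0.20 to -0.083 for the change, below 0 throughout. The intervals of INA copy ENSDARG00000011862, SNAP25 copy ENSDARG00000058117 and SNCG copy ENSDARG00000034423 were the 3 widest in each comparison, and 3 pools a group limit what could be called.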
